A study of Mus musculus with 10 samples.

Results

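The genes described here build and run the primary cilium: the intraflagellar transport (IFT) particles, their motors, the BBSome and the transition zone. The list holds 37 genes, and 35 of them had at least 1 probe set that the platform annotation assigns to a single gene symbol, out of 18194 genes measured. Rpgrip1l and Arl13b had none and were not analysed here. Where a gene had several, the brightest one on average stood for it. RNA of the secondary palate at E14.5, when the palatal shelves fuse, was read on Affymetrix mouse arrays, with 5 arrays of the Tgfbr2fl/fl;Wnt1-Cre mutant and 5 of the Tgfbr2fl/fl control, all on the strain labelled C57B6. Wnt1-Cre is a recombinase transgene active in the neural crest, and in mutant embryos it deletes the floxed Tgfbr2 alleles and so a receptor subunit needed for TGF-beta signals. Controls carry the same floxed alleles and no Cre in the genotype label, and their titles call them wildtype. Palate cells that do not come from the neural crest keep the receptor in mutants, and the tissue was measured in bulk. The study's stated question is which genes TGF-beta regulates while the palate forms. Samples carry numbers but no statement that they were separate embryos, and p-values therefore reflect only how far these samples spread, which may be technical.

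A primary cilium is a single, non-motile projection of the cell surface that most palate cells carry and that is required for Hedgehog signalling. IFT-B particles, pulled outward by a kinesin, carry cargo to the tip, and IFT-A particles, pulled by a cytoplasmic dynein, return it to the base. The BBSome is an adaptor that moves membrane proteins out of the cilium, and the transition zone is the gate between cilium and cell body. Inherited loss of many of these genes in humans causes ciliopathies, which can include cleft palate. Motile cilia of multiciliated cells use the same transport machinery, but add axonemal dyneins, radial spokes and other parts that primary cilia lack.

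Some facts of the arrays bear on the values of these genes. Control replicate 1 stood apart, with correlations of 0.985 to 0.989 with the other arrays over all genes, while the highest correlation of each other array was 0.996. It held the single highest value of 7 members and the single lowest of 6. Control replicate 4 was the single lowest array for 10 members. Tgfbr2 itself averaged 10.74 ± 0.05 in mutants and 10.66 ± 0.11 in controls (SD on the log2 scale, n = 5 each; limma adjusted p = 0.482), and since the position of its probe set against the deleted part is unknown here, this level does not check the deletion. The Y-linked gene Eif2s3y was at 9.0 to 9.3 in 4 mutant arrays and 5.1 in the other, and at 9.0 and 9.1 in 2 control arrays and 3.2 to 3.3 in the other 3, so sex was not balanced. The value of 5.1, in mutant replicate 5, lay between the low and the high values, and the sex of that sample is not settled by it. The 13 palate mesenchyme genes had mean levels between 5.76 and 12.3, and the brightest were Prrx1, a homeobox gene of craniofacial mesenchyme, and Pdgfra, a growth factor receptor. Prrx1 was at 12.36 ± 0.05 in mutant and 12.24 ± 0.24 in the control arrays, and Pdgfra was at 11.78 ± 0.11 in mutant and 11.68 ± 0.33 in the control arrays (SD on the log2 scale, n = 5 each). The summed level of the 13 mesenchyme markers on the linear scale was 18828 to 21257 in mutants and 16661 to 21217 in controls. The lists for cell types are read against all genes. Of all genes, 2.9% rose, 5.36% fell and 25.2% had an unadjusted limma p under 0.05. Of 20 skeletal muscle genes, 15 fell and none rose, with summed levels of 1498 to 11099 in mutants and 8547 to 28075 in controls. The smallest p among muscle genes were those of Myf5, a myogenic factor (-1.86), and of Actn2, Tnnt1 and Myh3, parts of the sarcomere (-1.98, -1.74 and -2.58), and the brightest were the actins Actc1 (-2.0) and Acta1 (-2.18). The call of Myh3 was lost without mutant replicates 2 or 3 or control replicates 3 or 5 (adjusted p up to 0.0631). None of 20 epithelial genes passed the limma test, and 5 had an unadjusted p under 0.05, near the share of all genes. The summed level of the 20 was 24575 to 30570.1 in mutants and 20656 to 32804 in controls. Of these, 17 had positive log2 fold changes, with a median of 0.15, and the keratin genes Krt8 (smallest p), Krt15 and Krt14 (brightest) had 0.56, 0.28 and 0.16. Of 10 endothelial genes 1 fell (Cldn5, a tight junction gene, -0.54), while the brightest, Egfl7 and Emcn, had -0.08 and 0.00. Of 10 macrophage and leukocyte genes 1 rose (Laptm5, a lysosomal membrane gene, 0.28), a call lost without any 1 of 9 arrays (adjusted p up to 0.101), and the brightest, Csf1r and Mrc1, had 0.14 and -0.22. Of 9 neuron and glia genes none passed the limma test and 1 had an unadjusted p under 0.05 (Ncam1, an adhesion molecule, 0.26; Erbb3, also bright, had -0.08). Of the 13 mesenchyme markers 1 rose (Tbx22, a cleft palate gene, 0.62) and 1 fell (Barx1, a homeobox gene, -0.34). The Tbx22 call was lost without mutant replicate 3 (adjusted p = 0.0505) and the Barx1 call without any 1 of 7 arrays (adjusted p up to 0.0803). The part of these cell types in the results below was not tested. In bulk tissue, fewer cells of a type and less RNA per cell cannot be told apart.

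Transcripts of the ciliary transport machinery differed little between mutant and control palate. Of the 35 members, 1 rose (Ift22), none fell and 34 did not pass the test, which was limma with Benjamini-Hochberg adjustment over all 18194 genes and an adjusted p under 0.05. Over all genes, 2.9% rose and 5.36% fell by the same rule, 8.26% in all, so a count of 1 in 35 lies near or below the background. By limma without adjustment, 6 of the 35 had a p under 0.05, against 25.2% of all genes. The median log2 fold change (mutant minus control) was 0.04 over the members and 0.00 over all genes, and single members lay between -0.20 and 0.46. Positive values were found for 21 members and negative values for 14, against 46.2% positive over all genes. No member had all its mutant arrays above all its control arrays, which held for 1.82% of all genes, or all below, which held for 4.93%. The counts of calls over all genes depended on scaling: 528 rose and 975 fell as deposited, and 538 and 632 after quantile normalization. With quantile normalization Ift22 was the only member called. When each array was centred on its median, 1283 genes rose and 474 fell. Those rounded medians were 7.4 in every mutant array and 7.4 or 7.5 in controls, and centring added 0.08 to every log2 fold change. After that centring 4 members rose (Ift22, Dync2h1, Ift122 and Traf3ip1) and none fell. Without control replicate 1, Ift22 (0.475, adjusted p = 0.0387) and Dync2h1 rose and no member fell.

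**Figure D1:**
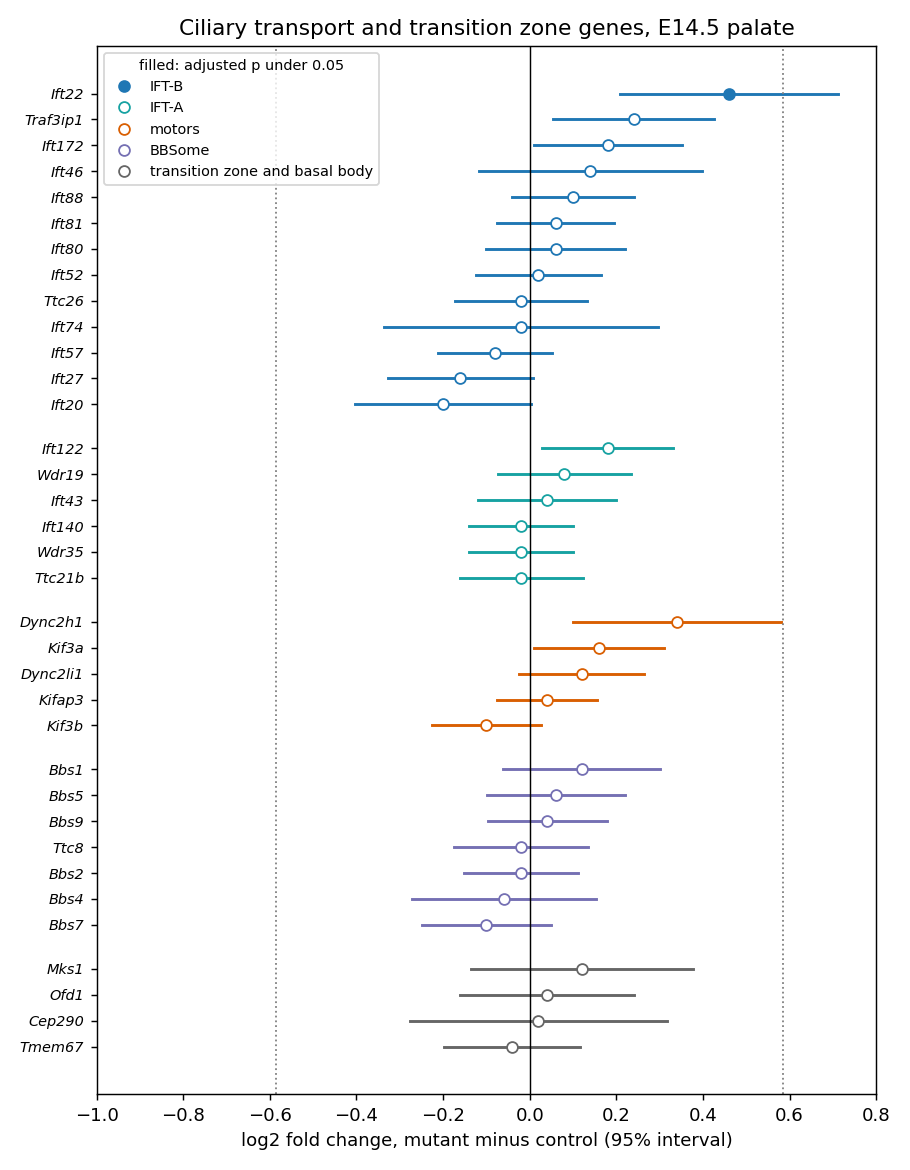
Log2 fold change (mutant minus control, horizontal axis) of each of the 35 members, grouped by complex, with its 95% confidence interval; filled points passed an adjusted p of 0.05 and dotted lines mark a 1.5-fold change. Ift22, at 0.46, is the only filled point and the only interval that crosses a dotted line.

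The intervals were narrow enough to bound most of these differences. The 95% confidence interval lay inside a 1.5-fold change in either direction for 34 of the 35 members, Ift22 being the exception, against 91.0% of all genes. This count is for the values as deposited. The interval of Dync2h1 reached 0.58, just inside the limit. Its log2 fold change was larger with centring (0.42) and with quantile normalization (0.404), and intervals under those scalings are not given here. It lay inside a 1.2-fold change for 20 of the 35, against 7108 of all 18194 genes. The deposited values are rounded to 1 decimal, in steps of 0.1 on the log2 scale, and 23 members differed by 0.1 or less, which is 1 step. The same held for 9361 of all 18194 genes. The SD over 5 arrays had a median of 0.08 in mutants and 0.13 in controls over the members, and it was larger in controls for 27 of the 35, against 61.5% of all genes. With control replicate 1 left out it was larger in controls for 22 members, against 46.4% of all genes.

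Ift22 encodes a small GTPase-like subunit of the IFT-B particle and was the member with the largest difference. Its values in mutant replicates 1 to 5 were 9.2, 9.4, 9.5, 9.5 and 9.4 on the log2 scale. In control replicates 1 to 5 they were 9.0, 9.3, 9.0, 8.6 and 8.8. Mutant arrays were higher in general, but the groups overlapped, since control replicate 2 lay above mutant replicate 1. The mean was 9.40 ± 0.12 in mutants and 8.94 ± 0.26 in controls (SD, n = 5 each), a 1.38-fold increase with a log2 fold change of 0.46 (SE 0.12, 95% confidence interval 0.21 to 0.71, limma adjusted p = 0.0325). The call rested on most arrays being present: it was lost without mutant replicates 2, 3, 4 or 5 (adjusted p = 0.0678, 0.0809, 0.0697 and 0.0659) and without control replicates 3, 4 or 5 (0.0610, 0.0536 and 0.0700), with log2 fold changes between 0.375 and 0.55 over all 10 removals. Ift22 had 1 probe set, so no other probe set can be set beside it.

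**Figure D2:**
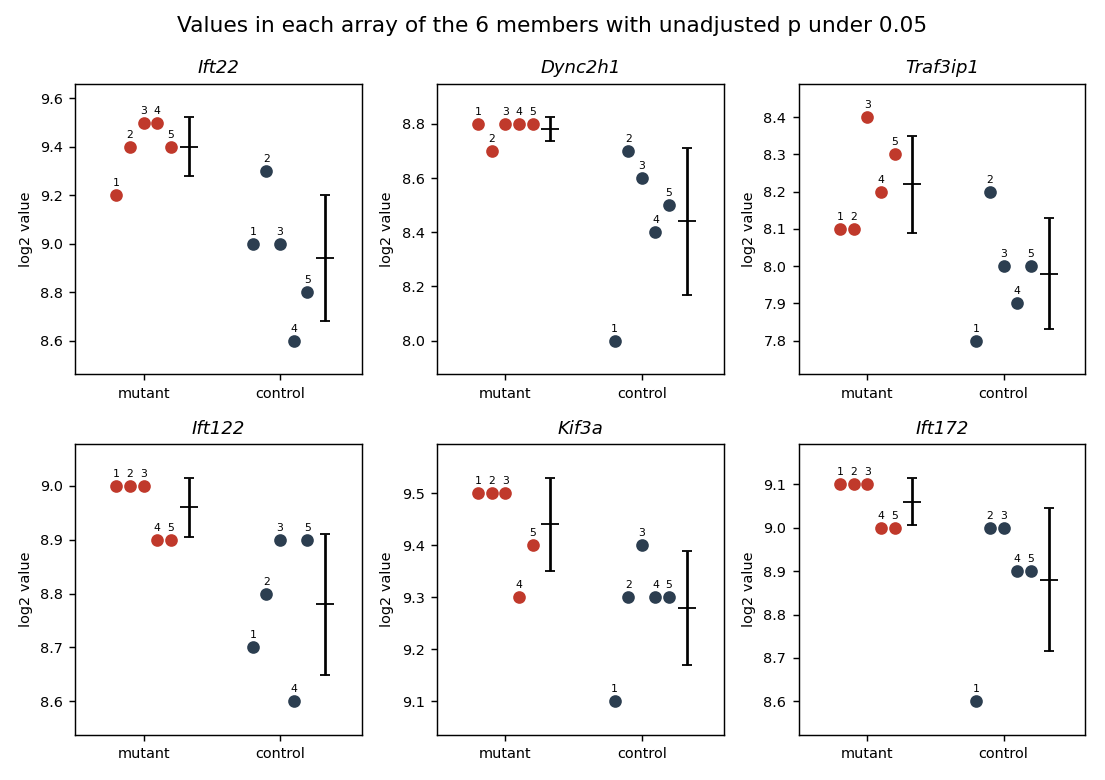
Deposited log2 value (vertical axis) in each mutant and control array, numbered by replicate, for the 6 members with an unadjusted p under 0.05; the black mark and bar give the mean and SD over 5 arrays. Mutant values lie higher on average in all 6 panels and overlap or touch the control values in each, and control replicate 1 is the lowest array for Dync2h1, Traf3ip1, Kif3a and Ift172.

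Genes of motile cilia rose in the same arrays. Of 40 measured genes of multiciliated cells and motile axonemes, 27 rose and none fell, with a median log2 fold change of 0.89. Over all genes, 2.9% rose and 5.36% fell. As with the other lists, these genes were chosen with earlier results of these data known. Dynlrb2, which encodes a dynein light chain, had the highest mean of the genes called in this list and was at 10.50 ± 0.14 in mutant and 9.04 ± 0.65 in the control arrays (SD on the log2 scale, n = 5 each; limma adjusted p = 0.00662). Myb, a transcription factor of multiciliated cells with the highest mean of the list, did not pass (0.64, adjusted p = 0.0804). The smallest p values were those of Ak7, Cfap43, Lrrc23 and Ccdc153, with log2 fold changes of 1.26, 0.88, 1.44 and 1.34. The summed level of the 40 genes on the linear scale was 10315, 11291, 12842.5, 11608 and 12358 in mutant replicates 1 to 5. It was 7142, 9221, 5926, 4105 and 5574 in control replicates 1 to 5. The control arrays stood in the same order for this sum and for Ift22, with replicate 2 highest and replicate 4 lowest and replicates 1 and 3 tied in Ift22. Among mutants, replicate 1 was the lowest for both. This order was not particular to Ift22. Ift46, which was not called, had the same control order, with replicates 3 and 5 tied. Control replicate 4 was the single lowest array for 10 members. Dync2h1 did not keep the order: control replicate 1, below only replicate 2 in the sum, was its lowest array, at 8.0. Epithelial genes also stood lower in some controls: their sum was 20656 to 21354 in control replicates 3 to 5, below the 24575 or more of every mutant array, but 26689 in control replicate 2 and 32804 in control replicate 1. The part of the motile cilia and epithelial genes in the Ift22 result was not tested.

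The stretch of genome before the start of Ift22 is shown because it carries matches to the X-box, the motif bound by RFX transcription factors, which act on many ciliary genes. The motif was searched on both strands as GTNNCC, then 3 bases of any kind, then GNAAC, in windows of 250 bases before to 50 bases after the start, taken from RefSeq (build GRCm38.p6). The sequence below is the 250 bases before the start at chr5:136907900-136908149 on the plus strand, with both matches in capitals.
Ift22: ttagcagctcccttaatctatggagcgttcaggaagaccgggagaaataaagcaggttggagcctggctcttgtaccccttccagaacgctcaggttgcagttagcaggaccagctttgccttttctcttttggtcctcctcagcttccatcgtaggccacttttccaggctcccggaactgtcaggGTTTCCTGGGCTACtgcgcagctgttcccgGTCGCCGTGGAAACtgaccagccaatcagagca

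Windows were found in RefSeq for 30 of the 35 members, and 7 of these 30 (23.3%) held a match, against 442 of 14453 measured genes with a window (3.06%) and 2.17% of all 32851 windows. The shorter motif GTTGCC, which is one arm of the X-box and overlaps the longer match in 5 of these 7 windows, was found in 14 of the 30 members (46.7%), against 14.7% of measured genes with a window and 12.5% of all windows. A match is a description of the letters and shows no binding. The matches of the other 6 members are given with 8 bases on each side, match in capitals, to let them be set beside Ift22. They lie on the plus strand at chr6:38381483-38381512 for Ttc26, chr11:87853183-87853212 for Mks1 and chr16:49699199-49699228 for Ift57, and on the minus strand at chr3:36613489-36613518 for Bbs7, chr9:59353464-59353493 for Bbs4 and chr19:4906605-4906634 for Bbs1.
Ttc26: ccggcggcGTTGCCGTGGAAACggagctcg
Mks1: gcgtctccGTTGCCAGGGGAACgaggcacc
Ift57: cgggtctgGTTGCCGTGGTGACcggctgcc
Bbs7: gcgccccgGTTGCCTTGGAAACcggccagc
Bbs4: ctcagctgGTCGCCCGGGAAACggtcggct
Bbs1: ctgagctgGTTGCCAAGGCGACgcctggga

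Of these 7 genes, Ift22 passed the test, and the other 6 had log2 fold changes between -0.10 and 0.12. Some windows begin at a transcript start other than the gene's outermost one, Ttc26 among them. The match in Ttc26 lay at the same distance before the start as the second match in Ift22, from base -33 to base -20, and Ttc26 stood at 8.04 ± 0.05 in mutant and 8.06 ± 0.13 in the control arrays (SD on the log2 scale, n = 5 each).

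The other 12 members of the IFT-B particle did not pass the test. The median log2 fold change over the 13 was 0.06, with 8 positive and 5 negative. Traf3ip1, which encodes a microtubule-binding subunit, had values of 8.1, 8.1, 8.4, 8.2 and 8.3 in mutant arrays, against 7.8, 8.2, 8.0, 7.9 and 8.0 in control arrays. All mutant arrays lay above every control except replicate 2, and the log2 fold change was 0.24 (SE 0.09, limma adjusted p = 0.106). Ift172, which encodes a large subunit that in green algae acts where particles turn round at the tip, was at 9.06 ± 0.05 in mutants and 8.88 ± 0.16 in controls (SD, n = 5 each; limma adjusted p = 0.177), with control replicate 1 at 8.6 and the other controls at 8.9 or 9.0, and a log2 fold change of 0.18 with that array and 0.11 without it. The lowest fold changes were those of Ift20, which links the particle to the Golgi (-0.20, 95% confidence interval -0.40 to 0.00, limma adjusted p = 0.207), and Ift27, another small GTPase (-0.16, -0.33 to 0.01, 0.222). Control replicate 1 was the highest array for Ift20, at 8.6 against 8.1 to 8.4 in the other controls, and without it Ift20 was at -0.12 and Ift27 at -0.125. Other removals gave values as low as -0.245 for Ift20. For Ift27 the lowest was -0.225, without control replicate 3 (limma adjusted p = 0.0613). These 2 GTPase subunits, Ift22 and Ift27, had fold changes of opposite sign, and the difference between them was not tested. All 3 probe sets of Ift27 had negative values, from -0.22 to -0.08, and the brightest of them is of a kind (suffix x) that can also bind other transcripts. The probe set at -0.22 lacks that suffix. Its 95% confidence interval ran from -0.37 to -0.07 (limma adjusted p = 0.0857 over all probe sets).

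The remaining IFT-B members lay close to 0. Ift88, whose loss in the mouse removes cilia, was at 8.66 ± 0.09 in mutant and 8.56 ± 0.09 in control arrays (SD, n = 5 each), with a 95% confidence interval of -0.04 to 0.24. Ift46 (0.14) and Ift57 (-0.08), Ift81 and Ift80 (0.06 each), Ift52 (0.02), and Ttc26 and Ift74 (-0.02 each) also failed the test, with adjusted p between 0.445 and 0.944. Ift74, which with Ift81 binds tubulin, was at 9.5 to 9.7 in mutants and at 9.3 to 9.6 in controls 2 to 5, but at 10.2 in control replicate 1, and without that array its log2 fold change was 0.135. Ift57 had a second, dim probe set that passed the test over all 34958 probe sets (0.30, limma adjusted p = 0.0271), with means of 4.70 in mutants and 4.40 in controls, while its bright one (9.62 and 9.70) did not. It and that of Ift22 were the 2 member probe sets of 56 that passed, against 4.91% of all probe sets.

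The IFT-A particle, which drives return transport and the entry of some membrane receptors, had a median log2 fold change of 0.01 over 6 members, with none called by limma and 1 at an unadjusted p under 0.05. Ift122 had the smallest p. It was at 9.0, 9.0, 9.0, 8.9 and 8.9 in mutant arrays and at 8.7, 8.8, 8.9, 8.6 and 8.9 in control arrays. The groups met at 8.9, and the log2 fold change was 0.18 (SE 0.07, limma adjusted p = 0.131), although its second probe set had the same mean in both groups. The others lay within 0.08 of 0: Wdr19 at 0.08, Ift43 at 0.04, and Ift140, Wdr35 and Ttc21b at -0.02. Wdr35 was at 8.4 in all 5 mutant arrays, and at 8.3 to 8.5 in controls. The 95% confidence intervals of Ift140 and Wdr35 ran from -0.14 to 0.10.

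The motors had the highest median of the complexes, 0.12 over 5 members, with 4 positive values and 1 negative, and none passed the limma test, with 2 at an unadjusted p under 0.05. Dync2h1 encodes the heavy chain of the dynein that powers return transport. It was at 8.8, 8.7, 8.8, 8.8 and 8.8 in mutant arrays, against 8.0, 8.7, 8.6, 8.4 and 8.5 in control arrays. All mutant arrays lay at or above the highest control, control replicate 1 lay far below the rest, and the log2 fold change was 0.34 (SE 0.11, 95% confidence interval 0.10 to 0.58, limma adjusted p = 0.0803). Without control replicate 1 it was 0.23 and passed the test (adjusted p = 0.0497), and without control replicate 2 it was 0.405 and also passed (0.0474). Dync2h1 passed limma with Eif2s3y as a covariate (0.489, adjusted p = 0.0226), with array weights (0.275, 0.0299) and with centring (0.42, 0.0341). It did not pass limma with quantile normalization (0.404, adjusted p = 0.0561) or the replicate block (0.34, 0.127). Dync2li1, a light intermediate chain of the same motor, was at 9.52 ± 0.04 in mutants and 9.40 ± 0.12 in controls (SD, n = 5 each; limma adjusted p = 0.284).

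The kinesin that drives outward transport has a pair of motor subunits and an accessory subunit. Kif3a, a motor subunit, was at 9.5, 9.5, 9.5, 9.3 and 9.4 in mutant arrays and at 9.1, 9.3, 9.4, 9.3 and 9.3 in control arrays. The groups overlapped at 9.3 and 9.4, its log2 fold change was 0.16 (limma adjusted p = 0.176), and its 4 probe sets gave 0.04 to 0.22. Kif3b, the partner motor subunit, had a log2 fold change of -0.10 (limma adjusted p = 0.306), and its 4 probe sets gave -0.10 to 0.06. Kifap3, the accessory subunit, had 0.04 and a 95% confidence interval of -0.07 to 0.15. Its second probe set, with means of 9.32 in mutants and 9.48 in controls, had -0.16 and a wider interval of -0.54 to 0.22. Summed on the linear scale, where bright genes weigh most, the 5 motor genes came to 3298 to 3531 in mutants and 3045 to 3269 in controls, without overlap. The sum over all genes also separated the groups, in the other direction, at 9335390 to 9503270 in mutants and 9552920 to 9781820 in controls. By the median deviation of the motor genes per array, 0.03 to 0.14 in mutants and -0.07 to 0.04 in controls, the groups overlapped.

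**Figure D3:**
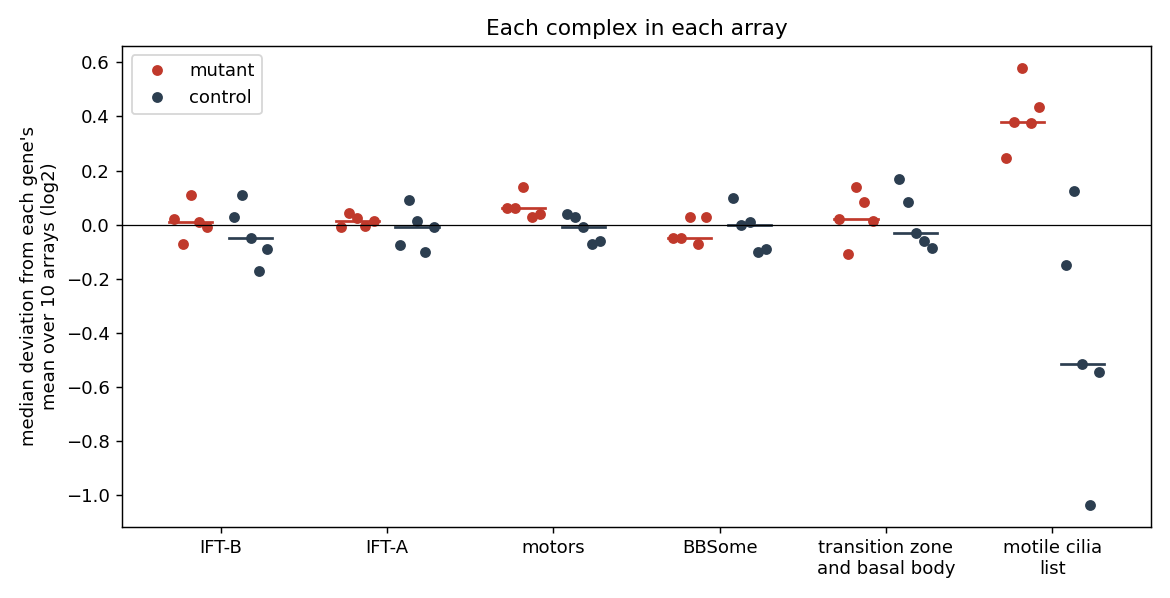
Median over the genes of each complex, and of the motile cilia list, of the deviation from each gene's mean over 10 arrays (vertical axis, log2) in each mutant and control array; short lines mark the group medians. By this median, groups overlap in the 5 complexes, which lie between -0.17 and 0.17, while motile cilia genes lie at 0.245 to 0.58 in mutants and -1.035 to 0.125 in controls.

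The BBSome, in which 7 of 7 listed subunits were measured, had a median log2 fold change of -0.02 (0.06 after centring, 0.035 without control replicate 1), with no member called and none with an unadjusted p under 0.05 by its brightest probe set. Bbs7, a propeller subunit, had the smallest p. It was at 7.5, 7.4, 7.6, 7.5 and 7.6 in mutant arrays and at 7.7, 7.7, 7.7, 7.5 and 7.5 in control arrays, so the groups overlapped, with a log2 fold change of -0.10 (SE 0.07, limma adjusted p = 0.392). Its second, dim probe set had -0.22, with means of 3.78 in mutants and 4.00 in controls (limma adjusted p = 0.123 over all probe sets). Bbs1, which binds the GTPase that recruits the complex to membranes, had 0.12 (95% confidence interval -0.06 to 0.30). Bbs5 had 0.06, Bbs9 0.04, Bbs2 and Ttc8 -0.02 each, and Bbs4 -0.06. Of the 4 probe sets of Bbs4, 3 had negative values, down to -0.18, and none was called, with the smallest unadjusted limma p at 0.0298. In control replicate 1 Bbs4 was at 8.4, against 7.8 to 8.0 in the other controls and 7.9 or 8.0 in mutants, and without that array its log2 fold change was 0.035.

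The transition zone and basal body genes had 4 of 6 members measured, with a median log2 fold change of 0.03 and none called by limma or at an unadjusted p under 0.05. Mks1, a transition zone gene mutated in Meckel syndrome, was at 8.0, 7.7, 8.1, 8.0 and 7.7 in mutant arrays and at 7.4, 7.9, 8.0, 7.8 and 7.8 in control arrays. These overlapped widely (0.12, SE 0.12, limma adjusted p = 0.561), and without control replicate 1 the log2 fold change was 0.025. Cep290, which encodes a link between the microtubules and the membrane of the gate, had the widest spread of these genes, 7.0 ± 0.21 in mutants and 6.98 ± 0.28 in controls (SD, n = 5 each), and its 95% confidence interval ran from -0.28 to 0.32. Without control replicate 1 its log2 fold change was 0.125. Ofd1, an X-linked gene of the distal centriole, had 0.04 (0.125 without control replicate 1) and Tmem67, a receptor-like membrane protein of the gate, had -0.04. Tmem67 was dim, at 5.6 to 5.9 in mutants and 5.6 to 5.8 in controls.

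The wider lists of cilium genes are read against the 8.26% of all genes called and the 25.2% with an unadjusted limma p under 0.05. Of 26 further transport genes (dynein subunits, chaperonins of the BBSome, Rab GTPases and carriers of lipid-linked proteins), none passed the limma test and 5 had an unadjusted p under 0.05. The smallest p among them was that of Pde6d, a carrier of prenylated proteins (-0.18, adjusted p = 0.0803). Of 23 further transition zone and ciliopathy genes, 2 rose and none fell (8.7%, near the 8.26% of all genes), with a median of 0.02. Tmem107, which encodes a transition zone membrane protein, was at 11.3, 11.5, 11.5, 11.5 and 11.5 in mutant arrays, against 10.8, 11.2, 10.7, 10.5 and 10.8 in control arrays. Every mutant array lay above every control, and the gene was 1.58-fold higher (log2 fold change 0.66, SE 0.11, limma adjusted p = 0.00590), and still passed with any single array removed. Mapkbp1, a ciliopathy gene, was 1.23-fold higher (0.30, adjusted p = 0.0374), and its call was lost without 8 of the 10 arrays, with adjusted p up to 0.0922.

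Of 29 basal body and centriole genes, 1 rose and none fell (3.45%), with a median of 0.04. Cep120, required for centriole assembly, was at 9.28 ± 0.13 in mutants and 8.94 ± 0.11 in controls (log2, SD, n = 5 each; 1.27-fold, limma adjusted p = 0.0244), with all mutant arrays above all controls, and the call was lost without mutant replicates 3 or 5 or control replicate 3 (adjusted p up to 0.0579). None of 6 RFX factors passed the limma test, and 1 had an unadjusted p under 0.05. This was Rfx3, which acts on ciliary genes, with values of 8.6, 8.3, 8.6, 8.6 and 8.5 in mutants, against 8.4, 8.2, 8.1, 8.2 and 8.4 in controls (0.26, SE 0.08, adjusted p = 0.0751). Mutant replicate 2 lay within the control range and the other 4 lay above it.

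Of 15 Hedgehog pathway genes, 1 rose, 1 fell and 13 did not pass (13.3% called), with a median of 0.00. Log2 fold changes were positive for 7 and negative for 7. Among those that did not pass, Gli1 had -0.28 (limma adjusted p = 0.209) and Ptch1 had 0.00. Gpr161, a receptor that represses the pathway from within the cilium, was at 8.18 ± 0.08 in mutants and 8.52 ± 0.08 in controls (log2, SD, n = 5 each). It fell by 0.34 on the log2 scale (SE 0.06, limma adjusted p = 0.00983), with all mutant arrays below all controls, and still passed with any single array removed. Hhip, a Hedgehog target that binds the ligand, was at 9.32 ± 0.08 in mutants and 8.88 ± 0.30 in controls (0.44, adjusted p = 0.0497), and its call was lost without 8 of the 10 arrays, with adjusted p up to 0.112.

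**Figure D4:**
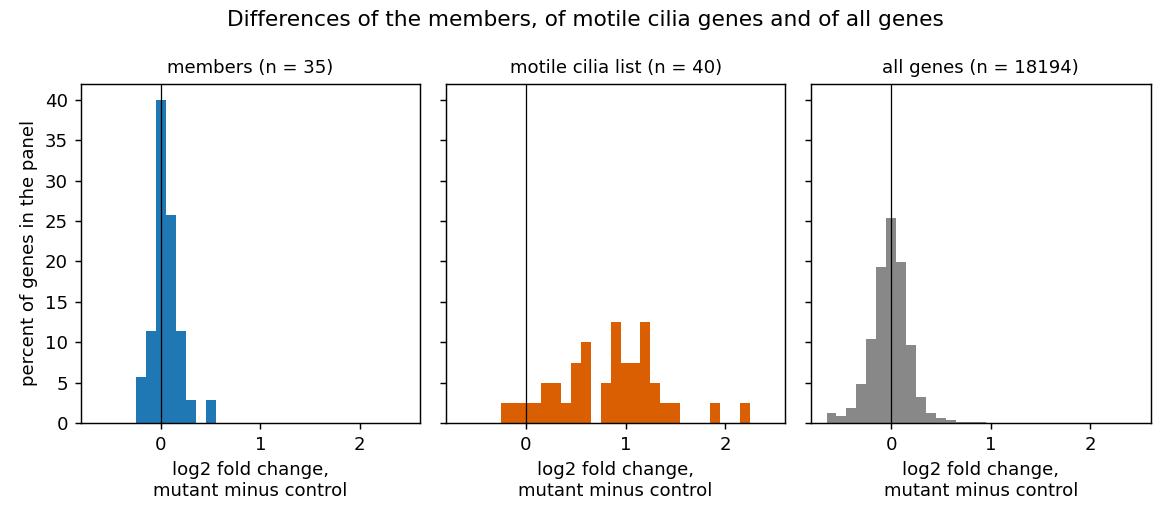
Log2 fold change (mutant minus control, horizontal axis, bins of 0.1) against the percent of genes in each panel, for the 35 members, the 40 motile cilia genes and all 18194 genes; the outermost bins also hold all values beyond them. Members gather round 0 (median 0.04) and motile cilia genes spread upward (median 0.89).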

How the data were processed

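Total RNA of the secondary palate was hybridised to 1 array per sample. The authors deposited log2 intensities; RMA is named, without a version, per the submitters' processing notes. The values are rounded to 1 decimal and lie between 2.2 and 14.3. No source used here gives a filter or a batch. Of 45101 probe sets, the platform annotation gives 1 gene symbol for 34958, several for 932 and none for 9211. Symbols were updated through the Entrez ID in a RefSeq table (GRCm38.p6), where 34754 were found. Differences (mutant minus control) were tested with limma 3.58.1 (lmFit, eBayes) in R 4.3.3, 2-sided, over 18194 genes with no filter or covariate and Benjamini-Hochberg adjustment. The fit was tested on simulated data. Values per array are given for called members, and for the member with the smallest p in complexes with none called. From other lists up to 4 called genes with the smallest p are named, or the 1 with the smallest p, and from cell type lists also the 2 with the highest mean. Tgfbr2 and Eif2s3y are named as the target and a sex-linked gene. The members and lists were chosen with earlier results of these data known. Traf3ip1, Kif3a and Ift172 are given by array, Ift88 and others by mean, and Gli1 and Ptch1 by fold change, outside this rule, after their values were seen. Alternatives were other probe set summaries, filters, variance models, scalings, array weights, a replicate block, Eif2s3y as a covariate and leaving out each array. The number of arrays limits the precision.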

Additional observations from a re-analysis of the deposited data

Results flagged for a closer look

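Among 69 groups of 5 arrays, 1 group per member and genotype, the gap between an extreme array and its nearest neighbour, divided by the group's range, passed Dixon's 95% critical value in 12. Chance flags about 1 in 20 groups of unrounded values, a rate that does not hold here: values are rounded to steps of 0.1, and 1 array a single step from 4 tied arrays gives a ratio of 1 by construction, as for Ift20, Dync2h1, Dync2li1, Kif3b, Ift140 and Kifap3. In mutants the ratio was 1 for Bbs1 (replicate 2 at 7.1, the others at 7.3), Ift20 (replicate 3 at 8.0, the others at 8.1), Dync2h1 (replicate 2 at 8.7, the others at 8.8), Dync2li1 (replicate 3 at 9.6, the others at 9.5), Kif3b (replicate 4 at 7.2, the others at 7.1) and Tmem67 (replicate 4 at 5.9, the others at 5.6). In controls it was 1 for Ift140 (replicate 2 at 9.1, the others at 9.0), Ift88 (replicate 4 at 8.4, the others at 8.6) and Kifap3 (replicate 1 at 10.5, the others at 10.4). It was 0.75 for Ift172 (control replicate 1 at 8.6, the others at 8.9 to 9.0), 0.75 for Ift27 (control replicate 3 at 8.7, the others at 9.0 to 9.1) and 0.8 for Ofd1 (control replicate 1 at 7.9, the others at 7.4 to 7.5).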

How the results depend on the processing

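The count of members that rose was 1 as deposited. It was 4 with arrays centred on their medians, 2 with array weights, 2 with Eif2s3y as a covariate and 0 with the replicate block. It ranged from 0 to 2 when each array was left out. With array weights and with the covariate, the 2 were Ift22 and Dync2h1. No member fell under any of these settings. The labels do not say whether the replicate numbers shared by the groups pair samples. The correlation of deviations of same-numbered arrays over all genes ran from -0.0994 to 0.105, which is low but does not settle this. Over all genes the replicate block left 167 higher and 365 lower, and Ift22 had a limma adjusted p of 0.0779. With arrays centred on their medians the median log2 fold change was 0.12 over the members, 0.14 for IFT-B, 0.09 for IFT-A, 0.2 for the motors, 0.06 for the BBSome and 0.11 for the transition zone, against 0.04, 0.06, 0.01, 0.12, -0.02 and 0.03 as deposited. With quantile normalization these were 0.086, 0.105, 0.07, 0.168, 0.03 and 0.063, so the sign of the BBSome median turned under both scalings, as it did with array weights (0.0197), and it ran from -0.045 to 0.035 when each array was left out. Leaving out arrays gave 0.07 to 0.145 for the motors. The median over all genes was 0.08 with centring and 0.007 with quantile normalization.

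Signs changed only for members that were not called under either setting. Centring adds 0.08 to the log2 fold change of every member, which by itself turns small negative values: Bbs2, Ttc8, Ift140, Wdr35, Ttc21b, Ttc26 and Ift74 were at 0.06, Tmem67 at 0.04 and Bbs4 at 0.02. With quantile normalization, Bbs2 was at 0.03, Ttc8 at 0.028, Ift140 and Wdr35 at 0.044, Ttc21b at 0.046, and Ttc26 and Ift74 at 0.026. With array weights, Bbs4 was at 0.0083, Ttc8 at 0.0197, Wdr35 at 0.0065, Ttc26 at 0.0353 and Ift74 at 0.125. With the mean of all probe sets, Ttc21b and Kif3b were at 0.01, Ift57 at 0.11 and Kifap3 at -0.06. With Eif2s3y as a covariate, Ttc21b was at 0.018, Ofd1 at -0.0257 and Cep290 at -0.0351. When each array was left out, the log2 fold changes ran for Bbs4 from -0.115 to 0.035, Bbs2 from -0.05 to 0.005, Ttc8 from -0.05 to 0.025, Ift140 from -0.045 to 0.005, Ttc21b from -0.06 to 0.015, Ift52 from -0.005 to 0.05, Ttc26 from -0.06 to 0.015, Ift74 from -0.09 to 0.135 and for Cep290 from -0.055 to 0.125. The cause of the shifts other than those of centring was not tested.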
